A study of Mus musculus with 24 samples.

Results

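Expression of 7 genes transcribed mainly in G2 phase and mitosis was examined in plasmacytomas, tumours of plasma cells, treated with the kinesin inhibitor filanesib and its partner drugs. The genes were the cyclins CCNB1, CCNB2, CCNA2 and CCNF, the kinase CDK1, its activating phosphatase CDC25C and the kinase subunit CKS2. They were taken by the gene symbol of the array's probe table, and all 7 were found among the 14884 genes measured. Each was read by a single probe set, listed under RefSeq accessions NM_031966, NM_004701, NM_001237, NM_001761, NM_001786, NM_001790 and NM_001827 in the order just given.

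CDK1 is the kinase that starts mitosis. It works only when bound to a cyclin, and its cyclins accumulate through S and G2 phase and are then destroyed through the ubiquitin ligase known as the anaphase-promoting complex. CDC25C removes the inhibitory phosphates that WEE1 places on CDK1, and CKS2 is a small subunit that helps the kinase act on substrates already phosphorylated. Cyclin F differs from the others in kind: it activates no kinase and serves as the substrate receptor of a ubiquitin ligase. Transcripts of these genes are made mainly in G2 phase and mitosis, under the MuvB complex with B-MYB and FOXM1.

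The tumours were grown under the skin of CB17-SCID mice, which lack functional B and T lymphocytes, from MM.1S, a single human multiple myeloma line. The 8 groups of 3 arrays comprised filanesib plus pomalidomide plus dexamethasone (the triple combination), filanesib plus dexamethasone, filanesib plus pomalidomide, pomalidomide plus dexamethasone, filanesib, pomalidomide, dexamethasone, and control. Doses were 10 mg/kg for filanesib (ARRY-520), 8 mg/kg for pomalidomide and 0.5 mg/kg for dexamethasone, given by intraperitoneal injection for 2 days; controls are labelled as untreated and received PBS vehicle per the treatment protocol. Filanesib blocks KIF11, the motor that separates the spindle poles, pomalidomide redirects the ubiquitin ligase adaptor cereblon, and dexamethasone is a glucocorticoid. The labels name mouse as the organism, but the probe table names human genes. Nothing in them ties arrays to individual animals, and the p-values therefore reflect only the variation among these samples, which may be technical.

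All values are log2 expression levels, so that a difference of 1 is a doubling, and they show differences of a gene between arrays, not between genes. Array medians were nearly equal, from 3.65 to 3.73. The 3 arrays that received only pomalidomide were the noisiest, with residual SDs of 0.193 to 0.288 against 0.127 to 0.180 in the remaining arrays. Of 10 listed plasma cell markers 8 were measured, and 6 of them averaged over 6 on the log2 scale, whereas POU2AF1 averaged 4.92 and CD27 4.15. The median level of the plasma cell markers lay between 9.64 and 9.99 across arrays with filanesib and between 9.60 and 10.0 across arrays without it. Among markers of other cells, 5 of 8 macrophage, 4 of 6 endothelial, 2 of 7 fibroblast and 2 of 5 T cell genes were measured, all with means under 6 except CD68, at 9.49. The host was mouse and the probe table names human genes, so these markers cannot measure the content of host cells. Of these 21 marker genes limma called 0 for filanesib on average, with 1 at an unadjusted p under 0.05, and 3 for pomalidomide. With pomalidomide CD68 (0.99) and the plasma cell marker CD38 (0.18) were higher, and the plasma cell marker IRF4 (-0.54) was lower.

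All 7 genes rose with filanesib when the drug's effect was averaged over its 4 backgrounds (no other drug, dexamethasone, pomalidomide, and both), which sets 12 arrays against 12. Across all genes tested, 1.25% rose in the same comparison, at a limma p-value adjusted by the Benjamini-Hochberg method under 0.05. The 7 genes were chosen with earlier results of these data known, so their excess over this share is not an independent test. The median difference of the 7 genes was 0.50 on the log2 scale, against -0.0019 over all genes. The average compares each background with and without filanesib, so it is not a rise above control for every gene. Against control, CCNF differed by -0.03 with filanesib alone, 0.03 plus dexamethasone, -0.12 plus pomalidomide and -0.22 with both. For CDC25C these values were 0.36, -0.004, 0.01 and 0.07. CCNB1, CCNB2, CCNA2, CDK1 and CKS2 lay above control in all 4. The genes were correlated across arrays, so their 7 calls are not 7 independent results. In bulk tumour RNA, a larger share of cells in G2 phase or mitosis and more of these transcripts per cell cannot be told apart.

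Cyclin B1, encoded by CCNB1 (probe set 16985599), is the cyclin that carries CDK1 into mitosis. Its level had a lowest, median and highest value of 6.71, 7.09 and 7.48 in the 12 arrays with filanesib, against 6.02, 6.52 and 7.20 in the 12 arrays without. The groups overlapped: 5 arrays with filanesib lay above every array without it, and 10 arrays without lay below every array with it. The rise was 0.61 ± 0.10 (SE), or 1.53-fold, with a limma adjusted p of 0.0017. Cyclin B2, encoded by CCNB2 (probe set 16801557), is a second partner of CDK1 found at the Golgi apparatus. It lay at 6.61, 6.92 and 7.44 with filanesib, against 6.05, 6.42 and 6.67 without. For CCNB2, 10 of the 12 arrays with filanesib exceeded all arrays without it. Its rise of 0.59 ± 0.09 (1.51-fold) had the smallest adjusted p of the 7 genes, 6.95e-04 by limma.

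Cyclin A2, encoded by CCNA2 (probe set 16979515), acts with CDK2 in S phase and with CDK1 in G2. It lay at 8.29, 8.67 and 9.15 with filanesib, against 7.79, 8.25 and 8.58 without, so the ranges overlapped. Its rise was 0.50 ± 0.08 (1.42-fold, limma adjusted p = 0.0017). Cyclin F, encoded by CCNF (probe set 16815090), lay at 7.43, 7.77 and 7.96 with filanesib, against 6.73, 7.32 and 8.04 without. The highest single value of CCNF belonged to an array without filanesib, a control, and no array with the drug exceeded it. The average rise of CCNF was 0.42 ± 0.08 (1.33-fold, limma adjusted p = 0.0081). CCNF lost this call without pomalidomide replicates 1 and 3, where its difference was 0.33 (adjusted p = 0.0644).

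The kinase itself, CDK1 (probe set 16705159), lay at 6.87, 7.20 and 7.59 with filanesib, against 6.29, 6.87 and 6.997 without. The ranges overlapped between 6.87 and 6.997, and 9 of 12 arrays on filanesib lay above all others. CDK1 rose by 0.42 ± 0.08 (1.34-fold, limma adjusted p = 0.0078). CDC25C (probe set 17000439) lay at 5.59, 5.93 and 6.39 with filanesib, against 5.19, 5.58 and 6.15 without. The overlap was wide here, with 2 of 12 arrays on filanesib above all the rest. The rise of CDC25C was the smallest of the 7, 0.37 ± 0.08 (1.30-fold, limma adjusted p = 0.0145), and its call was lost when every probe set was tested (adjusted p = 0.0616). CKS2 (probe set 17086634) lay at 8.32, 8.65 and 9.10 with filanesib, against 7.58, 7.98 and 8.51 without. Its ranges overlapped as well, yet its rise was the largest of the 7 at 0.70 ± 0.11 (1.62-fold, limma adjusted p = 0.0013). Its paralogue CKS1B encodes a closely related protein, and probe sequences were not examined for sharing between them.

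All 7 calls held when each of the 24 arrays was left out in turn. Tested against a minimum change of 1.2-fold, 0 of the 7 passed. For reference, the drug's target KIF11 rose by 0.50 ± 0.10 (limma adjusted p = 0.0078) and the proliferation marker MKI67 by 0.37 ± 0.09 (limma adjusted p = 0.0229).

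**Figure D1:**
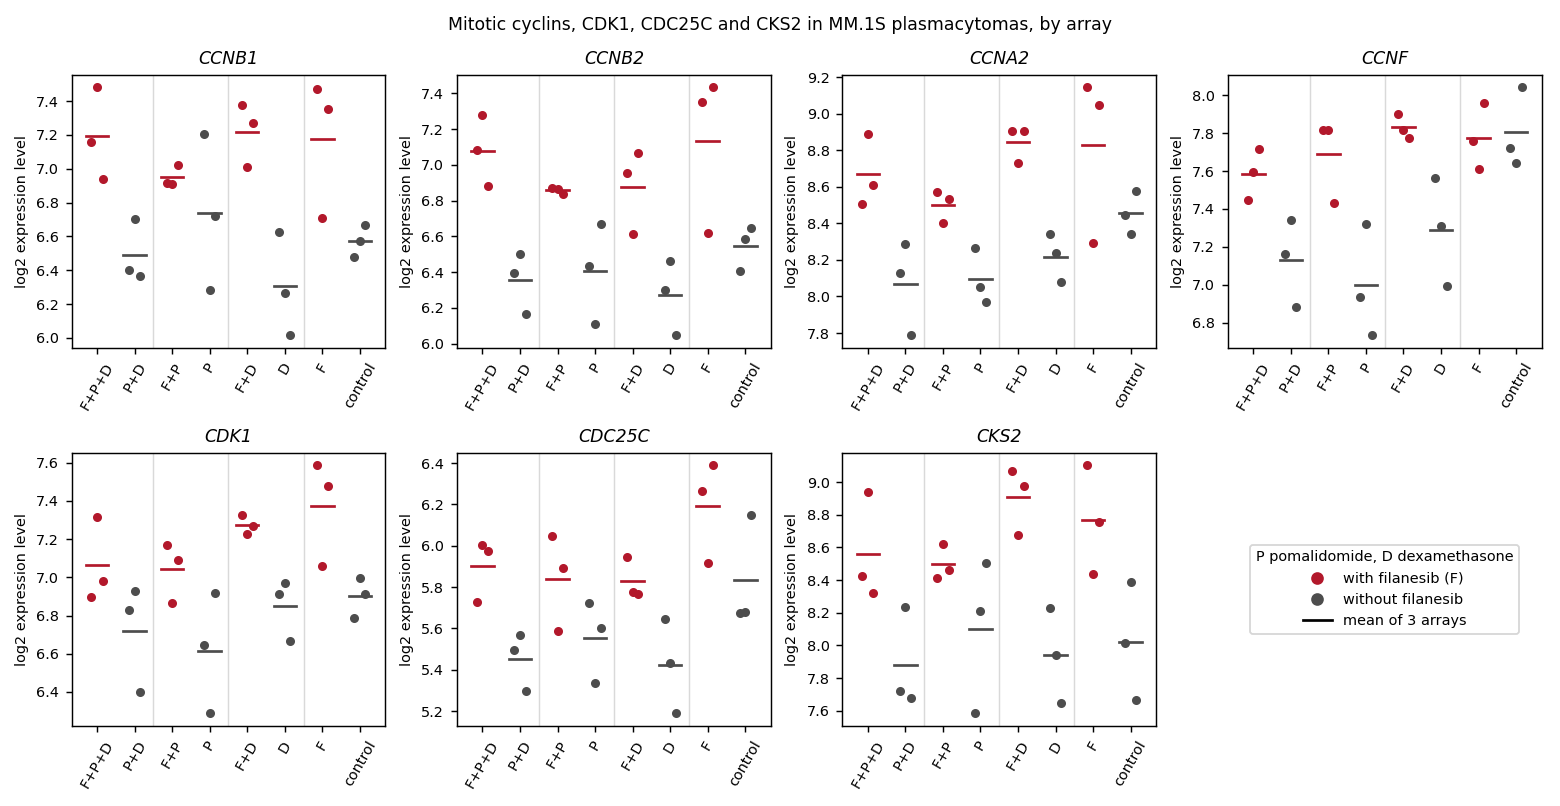
Log2 level of each of the 7 genes (vertical axis) in the 8 treatment groups (horizontal axis); points are single arrays and bars are group means of 3 arrays. CCNB1, CCNB2, CCNA2, CDK1 and CKS2 have their 4 highest group means in the groups that received filanesib, while the control group of CCNF is its second highest.

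The order of the 8 group means was similar for most of the genes. For CCNB1, CCNB2, CCNA2, CDK1 and CKS2 the 4 highest means were those of the 4 groups with filanesib. For CCNF and CDC25C, 3 of the 4 highest were, the control group being the other. The highest mean belonged to filanesib plus dexamethasone for CCNB1, CCNA2, CCNF and CKS2 and to filanesib alone for CCNB2, CDK1 and CDC25C. The lowest belonged to dexamethasone for CCNB1, CCNB2 and CDC25C, to pomalidomide for CCNF and CDK1, and to pomalidomide plus dexamethasone for CCNA2 and CKS2. From highest to lowest, group means spanned between 0.76 for CDK1 and 1.03 for CKS2. Neighbours in these orders mostly did not differ beyond their spread: of the 7 neighbouring pairs of groups, 7 overlapped for CCNB1, CCNF, CDK1 and CKS2, and 6 for CCNB2, CCNA2 and CDC25C.

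The effect of filanesib was next read in each background on its own, with 3 arrays against 3. Against control, filanesib alone left CCNB1 at 7.47, 6.71 and 7.35, against 6.48, 6.57 and 6.67 in control. Every filanesib array exceeded every control array, the second replicate by little. The difference was 0.61 ± 0.21. CKS2 lay at 9.10, 8.44 and 8.76 with filanesib, against 8.01, 8.39 and 7.67 in control, and CDK1 at 7.59, 7.06 and 7.48, against 6.79, 6.997 and 6.92. Both were again separated from control, with differences of 0.75 ± 0.23 for CKS2 and 0.48 ± 0.17 for CDK1. CCNB2 (0.59 ± 0.18), CCNA2 (0.37 ± 0.17) and CDC25C (0.36 ± 0.16) overlapped with control. CCNF showed no higher level: it lay at 7.76, 7.61 and 7.96 with filanesib, against 7.72, 7.64 and 8.04 in control, a difference of -0.03 ± 0.17 with a 95% interval of -0.37 to 0.31. Arrays did not overlap in 3 of 7 genes, all higher with filanesib, where this held for 5.62% of all genes. None of the 7 passed by limma (adjusted p = 0.9991 for each), nor did any other gene, the share called being 0%; at an unadjusted p under 0.05 stood 6 of the 7 and 587 of all genes. The second filanesib array was the lowest of its group for each of the 7 genes. Without it the differences were 0.84 for CCNB1, 0.64 for CCNA2 and 0.06 for CCNF. Without filanesib replicate 1 CCNA2 was at 0.21, and over omissions CCNF ranged from -0.12 to 0.09.

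Beside dexamethasone the separation was complete. CCNB1 lay at 7.38, 7.01 and 7.27 in filanesib plus dexamethasone, against 6.63, 6.27 and 6.02 in dexamethasone, and CKS2 at 9.07, 8.68 and 8.97, against 8.23, 7.94 and 7.65. No array of the pair reached down to the dexamethasone arrays in either gene. The differences were the largest seen in any background for these genes, 0.92 ± 0.21 for CCNB1 (1.89-fold) and 0.97 ± 0.23 for CKS2 (1.96-fold). CCNF lay at 7.90, 7.81 and 7.78 in the pair, against 7.57, 7.31 and 6.99 in dexamethasone, a difference of 0.54 ± 0.17. The remaining differences were 0.63 for CCNA2, 0.61 for CCNB2, 0.42 for CDK1 and 0.41 for CDC25C. All 7 genes were higher with no overlap, where 7.06% of all genes were. Over all genes 0 of the 7 passed, with limma adjusted p from 0.2244 to 0.7166, while 0.0202% of genes were called higher; all 7, and 853 of all genes, had an unadjusted p under 0.05.

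Beside pomalidomide the differences of the 7 genes ran from 0.22 for CCNB1 to 0.69 for CCNF in the fit to all arrays, but this order was not the same in other fits. With array weights CDK1 (0.62) and CCNB2 (0.61) exceeded CCNF (0.51), and CKS2 (0.39) lay below CCNB1 (0.40). Without pomalidomide replicates 1 and 3 the difference was 0.37 for CCNF, 0.67 for CCNB1 and 0.75 for both CDK1 and CCNB2. CCNF lay at 7.82, 7.82 and 7.43 in filanesib plus pomalidomide, against 6.93, 7.32 and 6.73 in pomalidomide, with no overlap. That difference was 0.69 ± 0.17 (1.61-fold) and did not pass (limma adjusted p = 0.0635). The limma adjusted p depended on the fit. It was 0.0534 with dim genes left out, 0.155 after further quantile normalisation, 0.3763 with array weights and 0.6745 in a fit to both groups alone. CCNB1 lay at 6.92, 6.91 and 7.03 in the pair, against 7.20, 6.29 and 6.72 in pomalidomide. The pomalidomide arrays of CCNB1 spanned both sides of the tight cluster formed by the pair, and the difference of 0.22 ± 0.21 had a 95% interval of -0.21 to 0.64. Without pomalidomide replicate 2 it was -0.01, and without replicate 1 it was 0.45. The differences of CCNB2 (0.45), CDK1 (0.43), CCNA2 (0.41), CKS2 (0.40) and CDC25C (0.29) lay between. Without pomalidomide replicate 2 they were 0.26 for CDK1 and 0.18 for CDC25C, and CDC25C was also at 0.18 without replicate 1 of filanesib plus pomalidomide. CKS2 was at 0.14 without pomalidomide replicate 1 and at 0.60 without replicate 3. CCNB2, CCNA2 and CCNF, 3 of 7, were higher without overlap, against 8.28% of all genes. The count of calls by limma was 0 of 7, against 0.255% of all genes called higher, with 4 of the 7 and 1980 of all genes at an unadjusted p under 0.05. Leaving out pomalidomide replicate 2 made CCNF pass (0.85), 1 of 7. That replicate had the lowest residual SD of the 3 pomalidomide arrays, 0.193.

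What filanesib adds to pomalidomide plus dexamethasone was the question of the series. CCNB2 lay at 7.08, 7.28 and 6.88 in the triple combination, against 6.40, 6.50 and 6.16 in pomalidomide plus dexamethasone, and CCNB1 at 7.16, 7.48 and 6.94, against 6.40, 6.70 and 6.37. Each triple array stood above each array of the pair. The differences were 0.72 ± 0.18 for CCNB2 (1.65-fold, limma adjusted p = 0.1721) and 0.70 ± 0.21 for CCNB1 (1.63-fold, limma adjusted p = 0.2558). CKS2 lay at 8.42, 8.94 and 8.32 in the triple combination, against 7.72, 8.24 and 7.68 in the pair, and differed by 0.68 ± 0.23. CCNA2 differed by 0.60, CCNF by 0.46 and CDC25C by 0.45. CDK1 was the only gene of the 7 to overlap: it lay at 6.90, 7.32 and 6.98 in the triple combination, against 6.83, 6.93 and 6.40 in the pair, 0.35 ± 0.17. That difference was 0.19 without replicate 3 of the pair and 0.22 without replicate 2 of the triple combination. Thus 6 of 7 were higher without overlap, against 7.22% of all genes. By limma 0 of 7 passed, against 0.00672% of all genes called higher, and all 7, with 1085 of all genes, had an unadjusted p under 0.05.

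**Figure D2:**
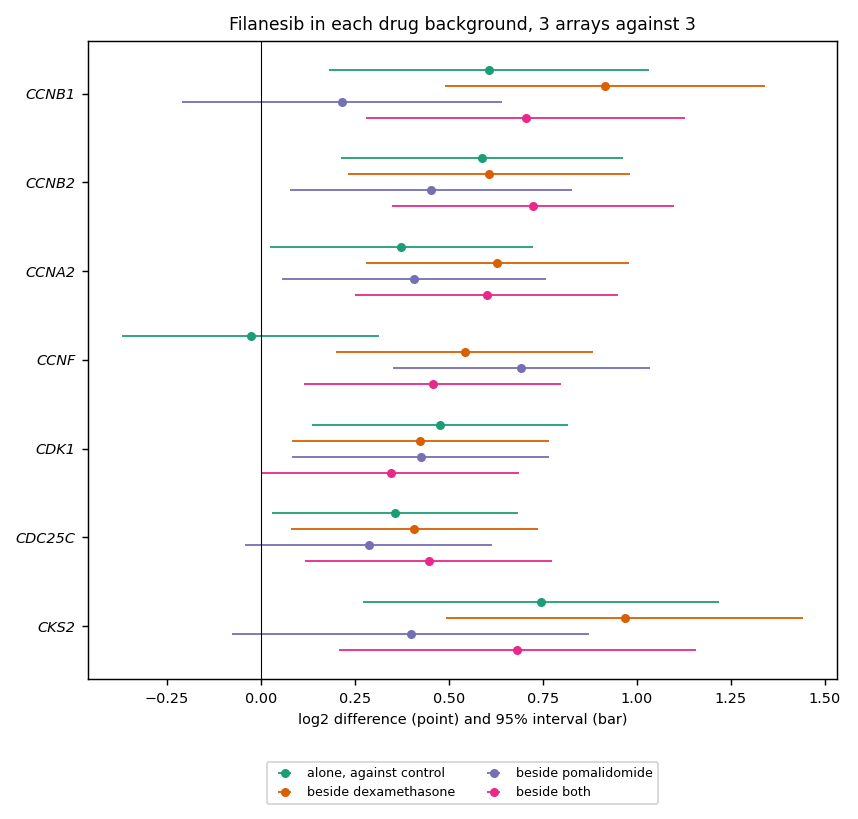
Log2 difference with filanesib minus without it (horizontal axis, point with 95% interval from limma) for each gene in each of the 4 backgrounds, 3 arrays against 3. Points lie right of 0 in all backgrounds except for CCNF with no other drug, at -0.03, and CKS2 beside dexamethasone is farthest right, at 0.97.

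Whether these backgrounds differed was tested directly. The mean effect of filanesib with pomalidomide present minus that with pomalidomide absent was 0.32 ± 0.17 for CCNF (limma adjusted p = 0.7831), -0.32 ± 0.23 for CKS2 (adjusted p = 0.8487) and -0.30 ± 0.21 for CCNB1 (adjusted p = 0.8309). None of them passed. Without pomalidomide replicates 1 and 3 the values were 0.155 for CCNF and -0.08 for CCNB1, and CCNB1 was at -0.18 without replicate 1 alone. With dexamethasone present minus absent, the difference was 0.40 ± 0.21 for CCNB1, 0.25 ± 0.23 for CKS2 and -0.07 ± 0.17 for CDK1 (limma adjusted p = 0.9997 each). Without pomalidomide replicates 1 and 3 they were 0.17 for CCNB1 and -0.23 for CDK1. Over omissions of an array CKS2 ranged from 0.15 to 0.38, and CDK1 from -0.15 to 0.02. For both interactions limma called 0 of 7 genes and 0% of all genes. At an unadjusted p under 0.05 stood 0 of 7 in each, with 996 of all genes for pomalidomide and 646 for dexamethasone. The 95% interval for CCNB1 with dexamethasone ran from -0.03 to 0.82, which does not show that the backgrounds acted alike.

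Relative to control, the triple combination had its largest differences in the B-type cyclins and CKS2. In the triple combination CCNB1 stood at 7.19 ± 0.27 (SD, n = 3), against 6.57 ± 0.10 in control (n = 3), a difference of 0.62 ± 0.21 (SE). CCNB2 stood at 7.08 ± 0.20, against 6.55 ± 0.12, a difference of 0.53 ± 0.18, and CKS2 at 8.56 ± 0.33, against 8.02 ± 0.36, a difference of 0.54 ± 0.23. CCNB1 and CCNB2 were separated from control, 2 of 7 higher without overlap against 8.79% of all genes. Differences were 0.21 for CCNA2, 0.16 for CDK1, 0.07 for CDC25C and -0.22 ± 0.17 for CCNF, all with overlap. Without replicate 2 of the triple combination they were 0.11 for CCNA2, 0.04 for CDK1 and 0.02 for CDC25C, and CKS2 was at 0.35. CDK1 was at 0.11 without control replicate 1 and at 0.25 without replicate 1 of the triple combination, and CCNF was at -0.10 without control replicate 3. CDC25C ranged from -0.01 to 0.22 over omissions of an array. None of the 7 passed (lowest limma adjusted p = 0.2264, for CCNB1), against 0.0739% of all genes called higher; 3 of 7 and 1579 of all genes had an unadjusted p under 0.05. In filanesib plus dexamethasone against control, CKS2 differed by 0.89 ± 0.23 and CCNB1 by 0.65 ± 0.21, CDC25C by -0.004 and CCNF by 0.03; limma called 0 of 7 and 0% of all genes, with 4 of 7 and 897 of all genes at an unadjusted p under 0.05. In filanesib plus pomalidomide against control, CKS2 differed by 0.48 ± 0.23 and CCNB1 by 0.38 ± 0.21, CDC25C by 0.01 and CCNF by -0.12; limma called 0 of 7 and 0.0873% of all genes higher, with 1 of 7 and 1131 of all genes at an unadjusted p under 0.05. These comparisons share the 3 control arrays.

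**Figure D3:**
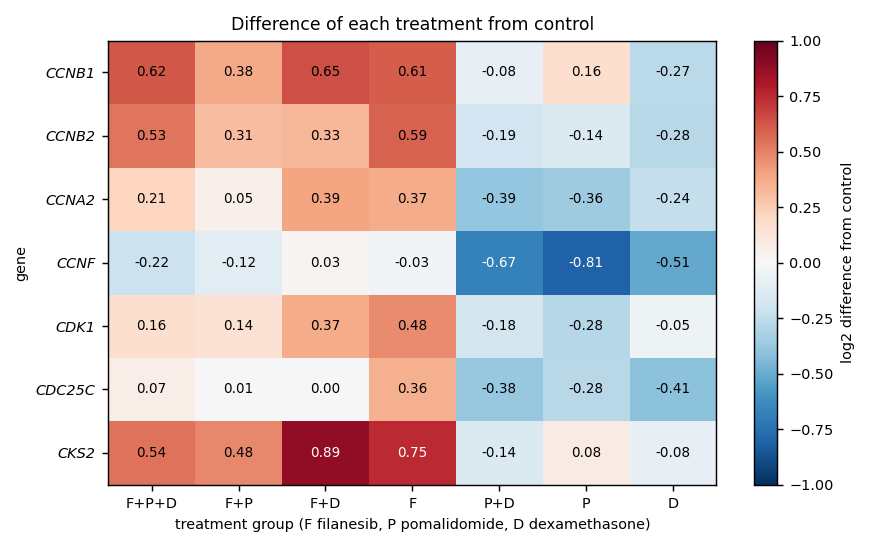
Log2 difference from control of each gene (rows) in each of the 7 treatments (columns), red for higher and blue for lower than control, with the value printed in each cell. The 4 treatments with filanesib are above control for CCNB1, CCNB2, CCNA2, CDK1 and CKS2, least for CCNA2 with filanesib plus pomalidomide, at 0.05. The lowest value is CCNF with pomalidomide, at -0.81.

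Among treatments without filanesib, 1 of the 7 genes passed in 1 comparison with control, CCNF with pomalidomide. With pomalidomide alone CCNF lay at 6.93, 7.32 and 6.73, against 7.72, 7.64 and 8.04 in control, so the groups did not overlap. It fell by 0.81 on the log2 scale (SE 0.17, 0.572-fold, limma adjusted p = 0.0151). The call was lost without control replicate 1, control replicate 3 or pomalidomide replicate 3, with array weights, against a minimum change of 1.2-fold, in a fit to both groups alone and without pomalidomide replicates 1 and 3. The difference itself was -0.85, -0.69 and -0.68 in those 3 omissions, -0.61 under array weights, and -0.48 once pomalidomide replicates 1 and 3 were left out. CCNA2 lay at 8.27, 8.05 and 7.97 with pomalidomide, against 8.44, 8.34 and 8.58 in control, also without overlap, but its difference of -0.36 ± 0.17 did not pass (limma adjusted p = 0.2906). CCNB1 (0.16) and CKS2 (0.08) stood slightly above control. Thus 1 of 7 genes fell, against 1.47% of all genes, and 2 of 7 were lower without overlap, against 9.06%.

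Dexamethasone alone gave a smaller difference for CCNF. The gene lay at 7.57, 7.31 and 6.99 with dexamethasone, against 7.72, 7.64 and 8.04 in control, a difference of -0.51 ± 0.17. CDC25C lay at 5.64, 5.43 and 5.19 with dexamethasone, against 5.67, 5.68 and 6.15 in control, a difference of -0.41 ± 0.16. Neither gene overlapped with control, nor did CCNA2 (-0.24), which makes 3 of 7 lower, against 6.05% of all genes. Limma called 0 of 7 (adjusted p = 0.9998 each) and 0.00672% of all genes, and 2 of 7 with 581 of all genes had an unadjusted p under 0.05.

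Pomalidomide plus dexamethasone had the same 3 genes below control without overlap, against 7.79% of all genes. CCNF lay at 7.16, 7.34 and 6.88 in the pair, against 7.72, 7.64 and 8.04 in control, -0.67 ± 0.17 (limma adjusted p = 0.1187). CCNA2 differed by -0.39 ± 0.17 and CDC25C by -0.38 ± 0.16, whereas CCNB1, at -0.08, stood near control. Limma called 0 of 7 and 0.0672% of all genes lower, with 3 of 7 and 1236 of all genes at an unadjusted p under 0.05. The difference of CDC25C between backgrounds was tested as the interaction of pomalidomide and dexamethasone: it was 0.37 ± 0.16 and did not pass (limma adjusted p = 0.8915), and 0 of 7 genes and 0% of all genes were called, with 1 of 7 and 821 of all genes at an unadjusted p under 0.05.

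Averaged over its 4 backgrounds, pomalidomide lowered 1 of the 7 genes, CCNF. CCNF had a lowest, median and highest value of 6.73, 7.39 and 7.82 in the 12 arrays with pomalidomide, against 6.99, 7.74 and 8.04 in the 12 without. The ranges overlapped over most of their length. CD68, a lysosomal protein used as a macrophage marker, rose in the same comparison by 0.99 ± 0.09. The 4 other macrophage genes measured had mean levels of 2.95 to 4.37 and did not pass. With a mouse host and human genes in the probe table, these markers cannot measure host cells. Their part in the result was not tested. CCNF fell by 0.33 (SE 0.08, 0.798-fold, limma adjusted p = 0.0222). CCNA2 (-0.25 ± 0.08, adjusted p = 0.0934) and CDK1 (-0.24 ± 0.08, adjusted p = 0.105) followed without passing, and the values were -0.15 for CKS2, -0.13 for CDC25C, -0.03 for CCNB2 and 0.03 for CCNB1. The signs of the last 2 turned in some omissions of a single array. In all, 1 of 7 fell, against 2.65% of all genes, and 0 of 7 rose, against 2.21%. An unadjusted p under 0.05 was found for 3 of 7 and for 2573 of all genes. CCNF lost its call when every probe set was tested (limma adjusted p = 0.0512), against a minimum change of 1.2-fold, and without pomalidomide replicates 1 and 3, where its difference was -0.24 (adjusted p = 0.118) and CDK1 passed in its place (-0.32, adjusted p = 0.0322). CDK1 also passed with array weights, without filanesib replicate 2 and without pomalidomide replicate 3, and CCNA2 passed with array weights and without filanesib replicate 2. The count of falls was 3 with array weights or without filanesib replicate 2, and 2 without pomalidomide replicate 3.

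By background, the difference of CCNF with pomalidomide was -0.81 (no other drug), -0.16 (dexamethasone), -0.09 (filanesib) and -0.25 (filanesib plus dexamethasone), each with an SE of 0.17. Limma called 0 of 7 genes in each of the last 3 backgrounds. There 0.0269% of all genes were called beside dexamethasone in either direction, 0.0739% were lower beside filanesib and 0.00672% were lower beside filanesib plus dexamethasone. At an unadjusted p under 0.05 stood 0, 1 and 0 of the 7 genes and 825, 1593 and 942 of all genes, in the same order. The test of the interaction with filanesib, given above for CCNF, did not pass.

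Dexamethasone had no called effect on any of the 7 genes on average. The value farthest from 0 was that of CDC25C, -0.20 ± 0.08 (limma adjusted p = 0.5843), with 12 arrays ranging from 5.19 to 6.002 with dexamethasone, against 5.34 to 6.39 without. For the other 6 genes the averages lay between -0.11 (CCNF) and -0.01 (CDK1), and the signs of CDK1, CCNA2, CKS2 and CCNB1 turned in some omissions. Limma called 0 of 7 and 0.0134% of all genes in either direction, with 1 of 7 and 1143 of all genes at an unadjusted p under 0.05.

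**Figure D4:**
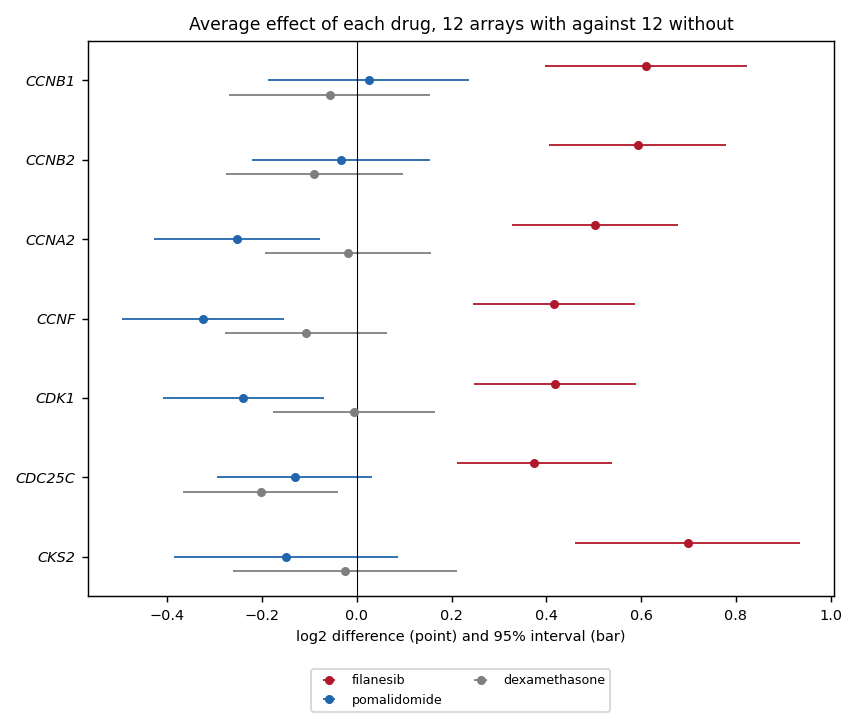
Average log2 difference with each drug minus without it (horizontal axis, point with 95% interval from limma), 12 arrays against 12, for filanesib (red), pomalidomide (blue) and dexamethasone (grey). All filanesib intervals lie right of 0, and the lowest pomalidomide value is that of CCNF, at -0.33.

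The 7 genes varied together, CCNF least. Over the 24 arrays the Pearson correlation between pairs of the 7 lay between 0.47 (CCNB1 with CCNF) and 0.88 (CCNB1 with CCNB2), with a median of 0.77 over 21 pairs. Since treatment moves all of them, the correlation was also taken over deviations from group means, where it lay between 0.07 and 0.82 with a median of 0.54. CCNA2 had the closest tie to the mean of the other 6 genes (0.94, and 0.86 over deviations), and CCNF the loosest (0.68, and 0.32 over deviations). These values are descriptive, since genes on the same arrays share RNA quality and normalisation.

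Outside the 7, the genes whose levels followed their mean most closely over the 24 arrays were the mitotic kinase PBK (r = 0.945), the CKS2 paralogue CKS1B (0.919), the CDK-binding phosphatase CDKN3 (0.906), the kinetochore protein KNSTRN (0.905), the checkpoint kinase TTK (0.904), the spindle protein HMMR (0.897), PARPBP, a PARP1-binding regulator of recombination (0.894), and CDC20 (0.893). Over deviations from group means, r for the same genes lay lower, between 0.62 (PARPBP) and 0.83 (PBK). Over the 24 arrays the correlation was 0.82 for KIF11 but 0.49 for MKI67. In all, 54 genes outside the 7 exceeded 0.8, and the median over all other genes was 0.0054.

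Regulators of CDK1 activity rose in part with filanesib. Of 22 listed, 12 were measured, and 6 rose and 0 fell, with a median of 0.31. The 10 not measured had no probe set carrying their symbol alone. They included the inhibitors PKMYT1, CDKN1A, CDKN1B and CDKN1C and the GADD45 genes, so few listed inhibitors of CDK1 were read. Beside the counts of this list and the lists below, 1.25% of all genes rose with filanesib and 2.65% fell with pomalidomide. The lists were also written with earlier results of these data known, so these shares serve for description only. PLK1, the kinase that activates CDC25C and inhibits WEE1, rose by 0.63 ± 0.07 (limma adjusted p = 3.98e-05), the phosphatase CDC25B by 0.54 ± 0.07, AURKA, which activates PLK1, by 0.56 ± 0.10, and CKS1B by 0.41 ± 0.07. WEE1, the inhibitory kinase, differed by 0.27 ± 0.08 and did not pass (limma adjusted p = 0.0935; it was singled out after its value was seen). With pomalidomide 1 of the 12 fell, CDC25A, the phosphatase that also acts at the entry to S phase, by 0.45 (SE 0.08, limma adjusted p = 0.0010). CDC25A was also among the 6 that rose with filanesib, by 0.35 ± 0.08 (limma adjusted p = 0.020).

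For the anaphase-promoting complex, which marks cyclins A and B for destruction, of 20 listed genes 18 were measured and 2 rose with filanesib, with a median of 0.11. The activator CDC20 rose by 0.71 ± 0.06 and the core subunit CDC27 by 0.26 ± 0.06 (limma adjusted p = 0.0271). The count was 1 without control replicate 1, filanesib replicate 1, dexamethasone replicate 1, replicate 1 or 3 of any of the 3 pairs of drugs, or replicate 2 of the triple combination. The subunit ANAPC10 (0.22 ± 0.07) and UBE2S (0.29 ± 0.11), the conjugating enzyme that extends ubiquitin chains, did not pass. With pomalidomide 2 of 18 fell: FBXO5, the EMI1 inhibitor of the complex, by 0.28 (SE 0.08) and the subunit ANAPC15 by 0.21 (SE 0.06, limma adjusted p = 0.0497).

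Among regulators that bind promoters of G2 and mitosis genes, 13 of 18 listed were measured, and 4 rose with filanesib, with a median of 0.24. FOXM1, which activates these promoters, rose by 0.47 ± 0.08 (limma adjusted p = 0.0032), the pocket protein RBL1, a repressor, by 0.43 ± 0.09, and the MuvB subunits LIN9 and LIN54 by 0.29 ± 0.07 and 0.27 ± 0.05. With pomalidomide 5 of 13 fell and 0 rose. MYBL2, which encodes B-MYB, fell by 0.64 (SE 0.08, limma adjusted p = 5.01e-05), the repressor E2F8 by 0.40 (SE 0.08), and the E2F partners TFDP1 by 0.34 (SE 0.07) and TFDP2 by 0.28 (SE 0.08). MYBL2 with filanesib differed by 0.26 ± 0.08 and did not pass.

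Of 14 listed cyclins, kinases and inhibitors of other phases, 10 were measured. Limma called 0 of them with filanesib, 2 having an unadjusted p under 0.05, and their median was 0.07. The smallest p-values were those of CDK4 (0.13 ± 0.06, adjusted p = 0.332) and CDK6 (0.25 ± 0.10, adjusted p = 0.3383), kinases of G1 phase, followed by their partners CCND2 (0.17 ± 0.09) and CCND3 (-0.13 ± 0.07). With pomalidomide 2 of 10 fell, cyclin E1, CCNE1, by 0.60 (SE 0.12, limma adjusted p = 0.0052) and its kinase CDK2 by 0.30 (SE 0.08).

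Of 9 listed partners and substrates of the cyclin F ligase, 8 were measured and 2 rose with filanesib, with a median of 0.24: the origin licensing factor CDC6 by 0.43 ± 0.09 and the spindle protein NUSAP1 by 0.37 ± 0.07. The count was 4 without pomalidomide replicate 1 and 1 without replicates 1 and 3 of pomalidomide. The centriole protein CCP110 (0.34 ± 0.10) and the nuclease EXO1 (0.33 ± 0.11) did not pass. With pomalidomide 5 of 8 fell, against 2.65% of all genes, with a median of -0.31. A link to the fall of CCNF was not tested. EXO1 fell by 0.58 (SE 0.11), CDC6 by 0.51 (SE 0.09), the ribonucleotide reductase subunit RRM2 by 0.42 (SE 0.07) and the histone mRNA-binding protein SLBP by 0.30 (SE 0.07), and NUSAP1 also fell. CDC6 and NUSAP1 thus passed in both comparisons, and SKP1, CUL1 and CCP110 in neither. The SKP1 probe set was dim, at 2.49 to 3.57 over the 24 arrays with array medians from 3.65, so a change of SKP1 could be missed. The ligase acts on these substrates as proteins, and only transcripts were measured here. With dexamethasone limma called 0 genes in each of the 5 lists, with 5 of their 61 genes at an unadjusted p under 0.05. Against a minimum change of 1.2-fold with filanesib, the anaphase-promoting complex list had 1 call and the other lists 0.

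**Figure D5:**
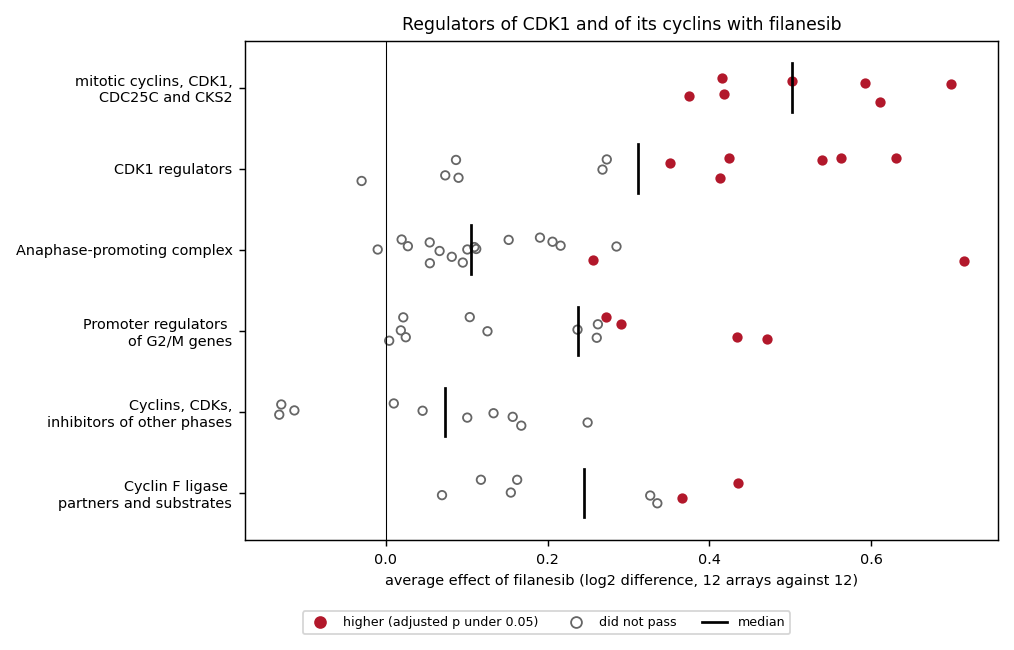
Average log2 difference with filanesib minus without it (horizontal axis), 12 arrays against 12, for the 7 genes and for each measured gene of the 5 regulator lists (rows); filled red points passed (limma adjusted p under 0.05), open points did not, and bars mark medians. The median is 0.50 for the 7 genes, against 0.07 to 0.31 for the lists.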

How the data were processed

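Log2 expression levels per probe set were deposited by the authors for 24 arrays in 8 groups of 3, made, per the submitters' processing notes, with Affymetrix Expression Console and RMA. RMA includes quantile normalisation, which hides a change shared by most genes. Versions and genome build are not given in the sources used here. Of 53617 probe sets, 16098 carried 1 gene symbol, and 779 genes with several were represented by the brightest on average, leaving 14884 genes. Genes without a probe set carrying their symbol alone count as not measured, though the array may read them under other labels. A mean per group was fitted with limma 3.58.1 in R 4.3.3 (16 residual degrees of freedom, eBayes, two-sided p, Benjamini-Hochberg adjustment over all genes within a comparison, threshold 0.05). Precision is limited by the number of arrays, with a median SE over all genes of 0.07 for an average effect and 0.14 between groups of 3. The fit was tested on simulated data. Named genes were the 7, KIF11, MKI67, the 8 genes most like the 7, and from each list up to 4 with the smallest p for filanesib and up to 4 passing for pomalidomide. Alternatives comprised normalisation, filters, array weights, variance prior, replicate block, probe set choice, minimum change, samples in the fit and omission of arrays. The 7 genes and the lists were chosen with earlier results of these data known. Replicate numbers were checked for pairing. Genomic positions and sequences were not used here.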

Additional observations from a re-analysis of the deposited data

How the results depend on the processing

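Of 2178 values of single genes under alternatives, 2102 kept their direction and side of the threshold, 19 lost a call, 15 gained one and 42 changed sign. With filanesib on average the count was 7 in all 24 omissions of an array, 6 with every probe set tested and without pomalidomide replicates 1 and 3, and 0 for a minimum change of 1.2-fold. For the average of pomalidomide the count was 3 with array weights, 0 with every probe set tested or a minimum change, and 1 to 3 over omissions. For pomalidomide against control it was 0 with array weights, compared groups only, pomalidomide replicates 1 and 3 left out or a minimum change, and 0 to 1 over omissions. With array weights the count was 3 for filanesib beside dexamethasone, 3 beside pomalidomide plus dexamethasone and 2 for the triple combination against control. Filanesib beside pomalidomide gave 0 to 1 over omissions.

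Signs turned in small values. For pomalidomide on average, CCNB1 was -0.0278 with array weights, -0.0877 with pomalidomide replicates 1 and 3 left out and -0.0334 to 0.0813 over omissions, and CCNB2 was -0.0984 to 0.0038 over omissions. For dexamethasone on average, CDK1 was 0.0135 with array weights, 0.0758 without pomalidomide replicates 1 and 3 and -0.0476 to 0.0335 over omissions. CCNB1 was 0.0556 without pomalidomide replicates 1 and 3 and -0.1153 to 0.0014 over omissions, CCNA2 -0.0866 to 0.0202 and CKS2 -0.0898 to 0.0255. CCNF with filanesib against control was 0.0345 with array weights and -0.1195 to 0.0927 over omissions. Over omissions, CCNB1 with filanesib beside pomalidomide was -0.0098 to 0.4489, CDC25C in the triple combination against control -0.0129 to 0.2246, and CDK1 in the filanesib by dexamethasone interaction -0.146 to 0.0162. The cause was not tested.

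With the replicate number as a block, the filanesib average kept 7 calls and the fall of CCNF with pomalidomide against control had a limma adjusted p of 0.0251; the block changed no count of calls among the 7 genes. No sign of pairing by number was seen. Deviations of arrays with the same number had a mean correlation of -0.0211 (-0.3159 to 0.305), against 0.0104 with different numbers, and 2 of 24 arrays correlated best with their own number. The check cannot show that the arrays were unpaired. A fit to the compared groups alone was not run for averages and interactions, which use every group. For the 7 genes dim signal limits little, as their lowest array value was 5.19.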
